A study of Arabidopsis thaliana with 16 samples.

Results

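The genes described here are those that the authors listed as differing between Arabidopsis thaliana seedlings carrying EIN2C-EIN3DBK245N and Col, the wild-type accession. The authors' deposited table for this comparison held 3721 genes. Organelle genes and a mitochondrial insertion on chromosome 2 (AT2G07671 to AT2G07789) were left out, which removed 81 and 36 genes. The remaining 3604 nuclear genes are the members, out of 9915 genes listed in at least 1 of the series' 3 expression tables after the same exclusions.

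The line carries the fusion in ein3-1eil-1, a background with mutations in the transcription factors EIN3 and EIL1. By its name the fusion joins EIN2C to EIN3DB, and K245N is a lysine to asparagine substitution in it. Its 2 RNA libraries came from whole seedlings grown in the dark for 3 days at 24 °C and given hydrocarbon-free air for 4 hours. The other 2 expression tables set EIN2C-EIN3DB and EIN2S645A, both in ein3-1eil-1 and in air with 2 libraries each, against Col. Chromatin immunoprecipitation (ChIP) with an EIN2 antibody came from seedlings carrying EIN2C-EIN3DB without K245N, in Col-0 or in ein3-1eil-1, in air or 10 ppm ethylene. Col libraries are not among the series' samples, and nothing is known here of the treatment of Col (not given in the sources used here), the promoter that drives each transgene or the number of independent transformants. The comparison therefore differs in both transgene and background, and an effect of the fusion cannot be told apart from one of ein3-1eil-1.

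Ethylene is perceived by a family of receptors at the endoplasmic reticulum that, without the hormone, keep the kinase CTR1 active and EIN2 restrained. When ethylene binds, the carboxyl-terminal part of EIN2 is released and reaches the nucleus, and EIN3 and EIL1 accumulate and activate target genes. Several targets feed back on the pathway, among them the receptor gene ERS2 and the F-box gene EBF2, whose product marks EIN3 for degradation. In dark-grown seedlings the pathway is known for the exaggerated apical hook, a short hypocotyl and protection of the seedling during greening.

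In the K245N line 1770 genes were higher and 1834 lower than in Col by the authors' calls, with a q-value under 0.05 and a fold of at least 2. Of 27389 annotated nuclear protein-coding genes outside the insertion, 6.33% were listed higher and 6.35% lower, which is the background for the counts below. At a fold of at least 4, genes at 0 in the line or in Col included, these shares were 1.5% and 1.27%. The genes that the authors tested are not given, so a gene that is not listed may have been unchanged, too low or not tested. Each value is the authors' pooled estimate over both libraries, and no value per library, SD or test could be computed from it. In whole seedlings, fewer cells of a type and less RNA per cell cannot be told apart. FPKM below is the level in the K245N line, in fragments scaled by transcript length and library depth, and log2 is the authors' log2 of the K245N line over Col, negative where the line was lower. The smallest p-value by the authors' deposited table was 5e-05, shared by 985 higher and 974 lower genes, so order among these cannot be read from p.

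The median level in the line was 27.0 FPKM for higher genes and 5.33 FPKM for lower genes by the authors' deposited table, and the same level entered the fold that defines the groups. Among genes with a finite log2, the median was 1.48 for 1724 higher genes and -1.41 for 1764 lower genes. A finite fold of at least 8 was reached by 87 higher and 68 lower genes. The members nearest the fold limit were AT1G27430 at log2 -1.00014 and AT4G25900 at 1.00057. Col was listed at 0 for 46 higher genes and the line was at 0 for 70 lower genes, and no fold is given for these.

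**Figure D1:**
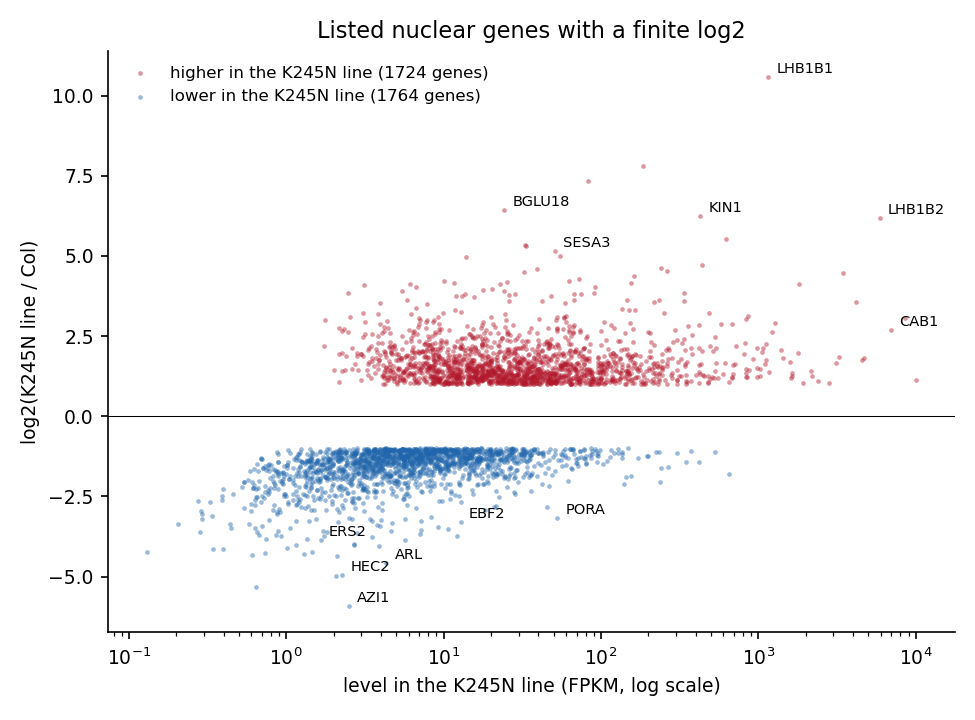
Each point is a listed nuclear gene with a finite log2, placed by its pooled level in the K245N line (FPKM, log axis) and its log2 over Col, with the 1724 higher genes in red and the 1764 lower genes in blue. The gap between log2 -1 and 1 is the authors' fold limit, and LHB1B1 stands highest at 10.57 while AZI1 stands lowest at -5.92.

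Ethylene signalling genes were lower in the K245N line, and none was listed higher. Of 18 perception and signalling genes 8 were listed, all lower, with a median log2 of -1.95 by the authors' deposited table. Of 26 known ethylene-induced EIN3 target genes 16 were listed, again all lower, with a median of -2.11. The lists share members, and together they held 19 listed genes out of 38. The median log2 over all listed genes with a finite value was -1.01, since slightly more genes were lower than higher.

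Among receptors, ERS2 (chr1:1154764-1157711 in the authors' TAIR10 loci) was at 1.65 FPKM and log2 -3.87, a 14.6-fold lower level than in Col by the authors' deposited table. The related receptor gene ERS1 was at 18.7 FPKM and log2 -2.03 by the authors' deposited table. The receptor genes ETR1, ETR2 and EIN4 were not listed. Downstream, CTR1, the kinase that restrains EIN2, stood at log2 -1.16, and RTE1, which acts with the receptor ETR1, at -1.74 by the authors' deposited table. ETP2, an F-box protein that promotes EIN2 turnover, stood at -1.04.

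EIN2 and EIN3 were not listed, although the line carries parts of both in its transgene. The sources used here do not say whether reads from the transgene were counted at these genes. EIL1, mutated in the background, was at 9.33 FPKM and log2 -2.65 by the authors' deposited table. EBF2 (chr5:8793018-8797020) was at 12.8 FPKM and log2 -3.30, and its relative EBF1 at 19.3 FPKM and -1.88, by the authors' deposited table. Both encode F-box proteins that target EIN3 for degradation.

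Among EIN3 targets with growth roles, ARL and ARGOS, related genes that promote organ growth, stood at log2 -4.59 and -2.10 by the authors' deposited table. HLS1, which is required for the apical hook, was at 1.72 FPKM and log2 -3.57. EDF3, RAV1 and RAV2, related DNA-binding proteins of the RAV family, stood at -4.37, -1.14 and -1.09 by the authors' deposited table. FLS2, the receptor for bacterial flagellin, stood at -4.00 and was at 1.15 FPKM in the line. ERF1, a classical direct target of EIN3, was not listed.

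Ethylene synthesis was split. ACO5 and ACO1, which carry out the last step, stood at log2 -1.82 and -1.93 by the authors' deposited table, and ACS5, an enzyme of the preceding step, at -2.01. ACS8, of the same family as ACS5, was higher at 2.99, with 7.12 FPKM. The remaining 11 of 16 synthesis genes were not listed. From the list of 12 ERF transcription factors and defence targets, ERF4, ERF105 and the chitinase gene HCHIB were higher, at 1.58, 1.54 and 1.17. ERF-1 was lower at -1.49 by the authors' deposited table, and the other 8 were not listed.

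The other lines' tables use the same Col, so their values are not independent of these. Of the 19 lower ethylene genes, 16 were also listed for EIN2C-EIN3DB and 13 for EIN2S645A, all lower. EBF2 stood at log2 -3.30 in the K245N table, -3.30 in that of EIN2C-EIN3DB and -1.57 in that of EIN2S645A. EDF3 stood at -4.37, -2.99 and -2.49 in the same order, and ARGOS at -2.10 and -3.56, without a listing for EIN2S645A. PORB stood at -2.05, -3.29 and -1.91 by the authors' deposited tables. RTE1, RAV2 and ETP2 were listed in the K245N table alone of the 3, each within log2 1.04 to 1.74 below Col. Differences between lines were not tested.

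**Figure D2:**
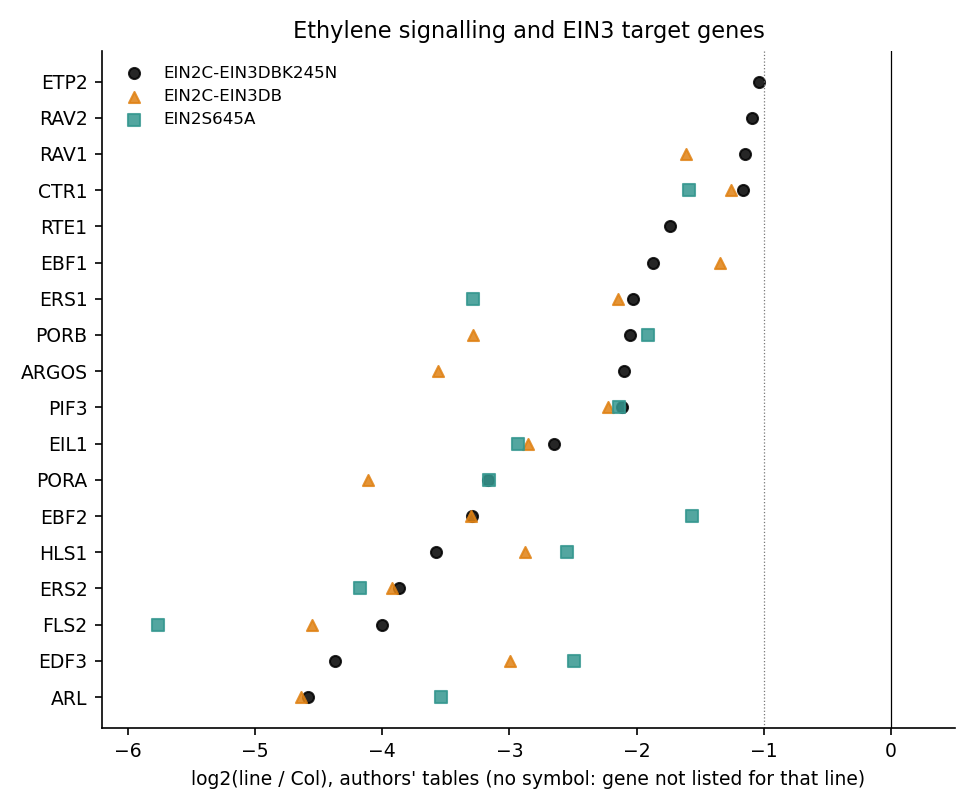
Rows are 18 of the 19 listed genes of the ethylene signalling and EIN3 target lists, and the horizontal axis is the authors' log2 of a line over Col for EIN2C-EIN3DBK245N (circles), EIN2C-EIN3DB (triangles) and EIN2S645A (squares). All symbols lie below -1, from ETP2 at -1.04 to FLS2 at -5.76 in EIN2S645A, and a missing symbol means that the gene was not listed for that line.

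Among listed genes for photosynthesis, antenna proteins were mostly higher and chlorophyll synthesis genes were lower. Antenna proteins bind chlorophyll and pass light energy to the photosystems, and 15 of 21 were listed higher and 1 lower. LHB1B1 (chr2:14524756-14525763) was at 1152 FPKM and log2 10.57 by the authors' deposited table, the largest finite increase of the table, yet with a q-value of 0.0208. CAB2 and CAB3, at 7.82 and 5.53, sit beside CAB1, which was at 6919 FPKM and 2.70. These genes are near-identical neighbours, as are LHB1B1 and LHB1B2 (5884 FPKM, 6.18), so the division of reads within each set is uncertain. Outside them, LHCB2.2 stood at 4.62, LHCA1 at 3.22, LHCB3 at 2.29 and LHCA4 at 2.13 by the authors' deposited table. Lhca6, an antenna protein that links photosystem I to the plastid NADH dehydrogenase-like complex, was lower at -1.68.

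Photosystem subunits were mostly not listed. Of 25 nuclear-encoded subunits, PSBR, PSAH-1, PSAO and PSAL were higher, at log2 1.49, 1.41, 1.29 and 1.19 by the authors' deposited table. NPQ4, the photosystem II protein needed for energy dissipation, was lower at -1.06. The Rubisco small subunit genes RBCS3B and RBCS1B were lower at -1.14 and -1.29, and the other 3 genes of that list were not listed.

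Chlorophyll synthesis genes were lower without exception among those listed, 8 of 16. The list overlaps with that of EIN3 targets, for example at PORB, so the groups are not separate. PORA and PORB reduce protochlorophyllide in the light, and PORA is characteristic of dark-grown seedlings. PORA was at 52.5 FPKM and log2 -3.17, and PORB at 237 FPKM and -2.05, by the authors' deposited table. PORC stood at -1.53. CHLI1 and GUN5, subunits of magnesium chelatase, stood at -1.88 and -1.55, and GUN4, which activates that enzyme, at -1.42 by the authors' deposited table. HEMA1, the committed enzyme of tetrapyrrole synthesis, stood at -1.06, and FLU, its inhibitor, at -1.08.

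Nuclear genes for plastid machinery, grouped after their values had been seen, were lower as well. Of 18 genes for the plastid NADH dehydrogenase-like complex, which returns electrons from photosystem I, 9 were listed and all were lower. NdhM stood at log2 -3.32, NDF5 at -2.73 and PnsL2 at -2.70 by the authors' deposited table, and NdhT was at 0 FPKM in the line. Of 47 factors for plastid RNA editing, splicing and transcription, 18 were lower and none higher, with a median of -1.51. The editing factor OTP86 stood at -2.60 and PTAC2, a component of the plastid transcription complex, at -2.22 by the authors' deposited table.

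**Figure D3:**
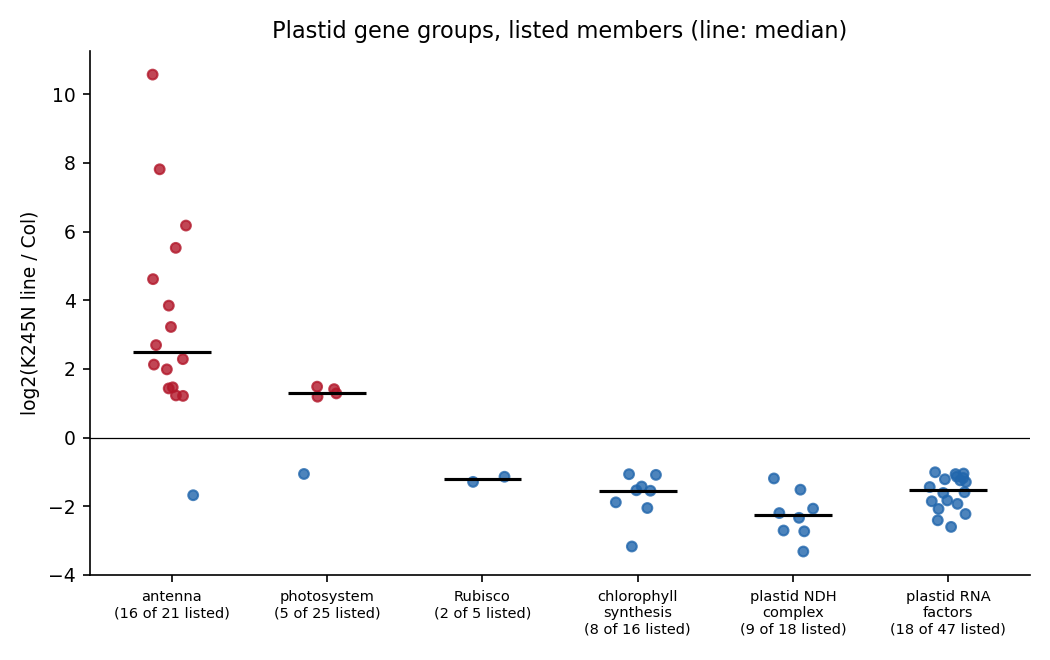
Points are listed members with a finite log2 of the K245N line over Col, with red above 0 and blue below 0, horizontal jitter for legibility and a black line at the median. Antenna genes have a median of 2.49, while listed genes of chlorophyll synthesis, the plastid NADH dehydrogenase-like complex (NDH) and plastid RNA factors all lie below 0.

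Light regulators were mixed, with 2 of 18 higher and 3 lower. PIF4 and PIL6 (PIF5), transcription factors that promote elongation in the dark, were higher at log2 2.67 and 1.44 by the authors' deposited table. PIF3, of the same family and also an EIN3 target, stood at -2.11, and HY5, the main activator of light responses, at -1.76. ELIP2, an early light-induced protein, was at 0 FPKM in the line. GLK1 and GLK2, regulators of chloroplast development used here as markers of green tissue, were not listed.

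The circadian clock list was divided, with 10 of 14 genes listed, 5 in each direction. The morning genes CCA1, LHY and RVE8 were lower, at log2 -2.01, -2.37 and -2.11 by the authors' deposited table. ELF3, a member of the evening complex, was lower at -2.11, and TOC1 at -1.03. FKF1, PRR5, ELF4 and GI, which peak from midday to evening in light cycles, were higher at 2.14, 1.79, 1.46 and 1.16, and PRR9 at 1.93 by the authors' deposited table. The sources used here do not give the time of day of harvest.

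Genes of the cold and abscisic acid lists were higher where listed. Of 15 cold genes 6 were higher and none lower. KIN1 (chr5:5209898-5210727) was at 428 FPKM and log2 6.24, and its neighbour KIN2, of very similar sequence, at 1268 FPKM and 2.92, by the authors' deposited table. CBF2, a transcription factor induced by cold, stood at 3.92, COR413-PM1 at 2.13 and RD29A at 2.02. Of 17 abscisic acid genes 5 were higher and none lower, among them the dehydrin RAB18 at 2.31, the response gene RD29B at 2.12 and NCED3, the rate-limiting enzyme of abscisic acid synthesis under drought, at 2.24 by the authors' deposited table. P5CS1, which makes proline under stress, stood at 3.30 with 164 FPKM, and RCI2A, a small membrane protein induced by cold, at 3.55 with 4180 FPKM, by the authors' deposited table. The last pair was chosen after the values had been seen.

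Other stress lists were less uniform. Of 47 heat shock genes 4 were higher and 10 lower. HSFA6A and HSFA6B, factors also linked to drought and salt, were higher at log2 4.14 and 2.13, while HSFA3 stood at -3.71, Hsp70b at -2.15 and HSP101, a chaperone that dissolves aggregates, at -1.53 by the authors' deposited table. Of 12 hypoxia genes, ADH1, SUS1 and HB1 were higher at 1.89, 1.56 and 1.45. RAP2.3, a hypoxia transcription factor, was lower at -3.51, and the other 8 were not listed. ADH1 shares its locus in the authors' table with AT1G77122, which was lower at -1.31. Of 19 jasmonate genes only VSP2, VSP1 and AOS were listed, higher at 3.81, 1.62 and 1.28 by the authors' deposited table.

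Genes of the salicylate and pattern immunity list were lower where listed. AZI1 (chr4:7401109-7401907), a lipid transfer protein of defence priming, was at 2.49 FPKM and log2 -5.92, the largest finite decrease, by the authors' deposited table. EFR, the receptor for the bacterial elongation factor Tu, stood at -2.96 with 0.288 FPKM. With FLS2 these were the 3 listed of 18 salicylate and pattern immunity genes. A group chosen after the values had been seen, 96 receptor-like proteins and cysteine-rich receptor kinases, had 14 lower and 1 higher. RLP14 stood at -3.36 with 0.442 FPKM and CRK28 at -3.28 with 1.40 FPKM, by the authors' deposited table. The higher one, CRK25 at 2.24, shares its locus there with ATK5.

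Seed reserve genes were higher. Seed storage proteins and oleosins are made in the embryo and broken down during germination, and 6 of 14 genes of that list were higher with none lower. SESA3 was at 50.8 FPKM and log2 5.14, and the storage proteins PAP85, CRC and CRA1 stood at 3.39, 3.14 and 1.42 by the authors' deposited table. OLEO1 and OLEO2, proteins of oil bodies, stood at 2.40 and 1.40. In the EIN2C-EIN3DB table CRC was lower at -2.17, and in that of EIN2S645A it was higher at 2.76, by the authors' deposited tables. Of 14 oil breakdown and glyoxylate cycle genes, LACS6, LACS7 and PKT3 were higher at 2.09, 1.65 and 1.34. ICL, the glyoxylate cycle enzyme, was lower at -1.79 with 654 FPKM, and the other 10 were not listed.

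Among growth genes, water channels were higher. Of 31 aquaporins 15 were higher and none lower, with a median log2 of 1.34. DELTA-TIP and GAMMA-TIP, channels of the vacuole membrane, were at 8524 and 3243 FPKM, with log2 3.08 and 1.86 by the authors' deposited table. TIP2 was the most abundant listed aquaporin at 10078 FPKM and log2 1.12. Of 36 expansins, which loosen cell walls, 7 were higher and 3 lower, led by EXPA2 at 4.18 and EXPB3 at 2.93, with EXPA9 at -2.19 by the authors' deposited table. XTH5, XTH33, XTH31 and XTH19, enzymes that cut and rejoin xyloglucan, were lower at -1.92 to -1.47, and the other 29 genes of that family were not listed. Of 80 small auxin up RNA genes 11 were lower and 2 higher, with SAUR1 at -3.41 and SAUR72 at 1.74, and 5 of the lower ones had a q-value under 0.01.

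Auxin genes were listed about as often as genes at large, with 6 of 90 (6.67%) higher and 4 (4.44%) lower. IAA29, LAX1, an auxin importer, and YUC8, an auxin synthesis enzyme, were higher at log2 2.13, 1.91 and 1.47, and IAA20 was lower at -2.86 by the authors' deposited table. Of 60 cytokinin genes 2 were higher and 3 lower, or 3.33% and 5%, both under the share of all genes. CKX4, a cytokinin-degrading oxidase, and IPT5, a synthesis enzyme, were higher at 3.90 and 2.11, and neither kept its call with a q-value under 0.01. LOG5, an activating enzyme, CKX6, of the same family as CKX4, and the receptor HK2 were lower at -2.74, -1.54 and -1.02 by the authors' deposited table. BES1, a transcription factor of brassinosteroid response, stood at -1.76, and GA3OX1, which completes bioactive gibberellin, at -1.30 by the authors' deposited table. Of 32 gibberellin genes 2 were listed, both lower (6.25%, close to the share of all genes). Of 10 brassinosteroid genes BES1 was the 1 listed.

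Of 17 root hair genes 4 were listed higher and 1 lower. RHS19, LRX1, PRP3 and AHA7 were higher at log2 3.18, 2.63, 2.37 and 2.18, LRX2 was lower at -1.69, and RHD6 and EXPA7 were not listed. With a q-value under 0.01 the count was 1 higher and 1 lower. CASP4, CASP1 and CASP2, membrane proteins of the Casparian strip in the root endodermis, were higher at 3.34, 2.29 and 1.67 by the authors' deposited table, a group chosen after its values had been seen. Phosphate, nitrate, ammonium and sugar transporters had 10 of 69 higher and 2 lower, with the phosphate transporter PHT1;1 at 4.21 and the ammonium transporter AMT1;3 at 2.12.

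Beta-glucosidase and glucosinolate genes were higher where listed. The beta-glucosidases BGLU18, BGLU21 and BGLU22, which are stored in endoplasmic reticulum bodies, stood at log2 6.44, 4.59 and 1.89 by the authors' deposited table, 3 of the 6 genes in their list. The myrosinases TGG1 and TGG2, which break down glucosinolates, stood at 1.61 and 1.28, and the glucosinolate synthesis genes CYP79B2 and CYP79B3 at 1.34 and 1.17. These were the 4 listed of 12 glucosinolate genes. ESM1, a regulator of glucosinolate breakdown outside that list, was at 33.3 FPKM and 5.32 by the authors' deposited table. Cytochrome P450 genes had 16 higher (6.67%) and 17 lower (7.08%) of 240, close to the share of all genes, and 14 and 10 with a q-value under 0.01. They ranged from CYP710A4, a sterol desaturase at 54.8 FPKM and a 31.9-fold increase, to CYP96A5 at 0.643 FPKM and log2 -5.34. UDP glycosyltransferases had 2 higher and 11 lower of 64, with UGT76C2, which conjugates cytokinins, at -2.77 by the authors' deposited table.

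Of the lists grouped after their values had been seen, that of proteasome subunits had 19 of 39 higher and none lower. Its median log2 was 1.57, with PAB1 at 3.75 by the authors' deposited table. Subunits without a matching symbol may be missing from that list, so the count holds for the list only. Superoxide dismutases, ascorbate peroxidases and monodehydroascorbate reductase had 6 of 14 higher and 1 lower, with CSD1 at 2.32, APX1 at 1.94 and FSD3 at -1.05. The growth-regulating factors GRF7, GRF2 and GRF1, transcription factors of leaf growth, were lower at -3.85, -3.27 and -1.42, 3 of 9 in that family. HEC2 and HEC1, bHLH factors of the carpel and shoot meristem, stood at -4.96 and -3.45 by the authors' deposited table. MYB factors had 3 higher and 12 lower of 125. WRKY factors had 5 higher (7.04%, close to the share of all genes) and 1 lower of 71, and 1 in each direction with a q-value under 0.01. Of 17 histone acetylation and deacetylation genes HAC5, an acetyltransferase gene, was the 1 listed, at -1.03.

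**Figure D4:**
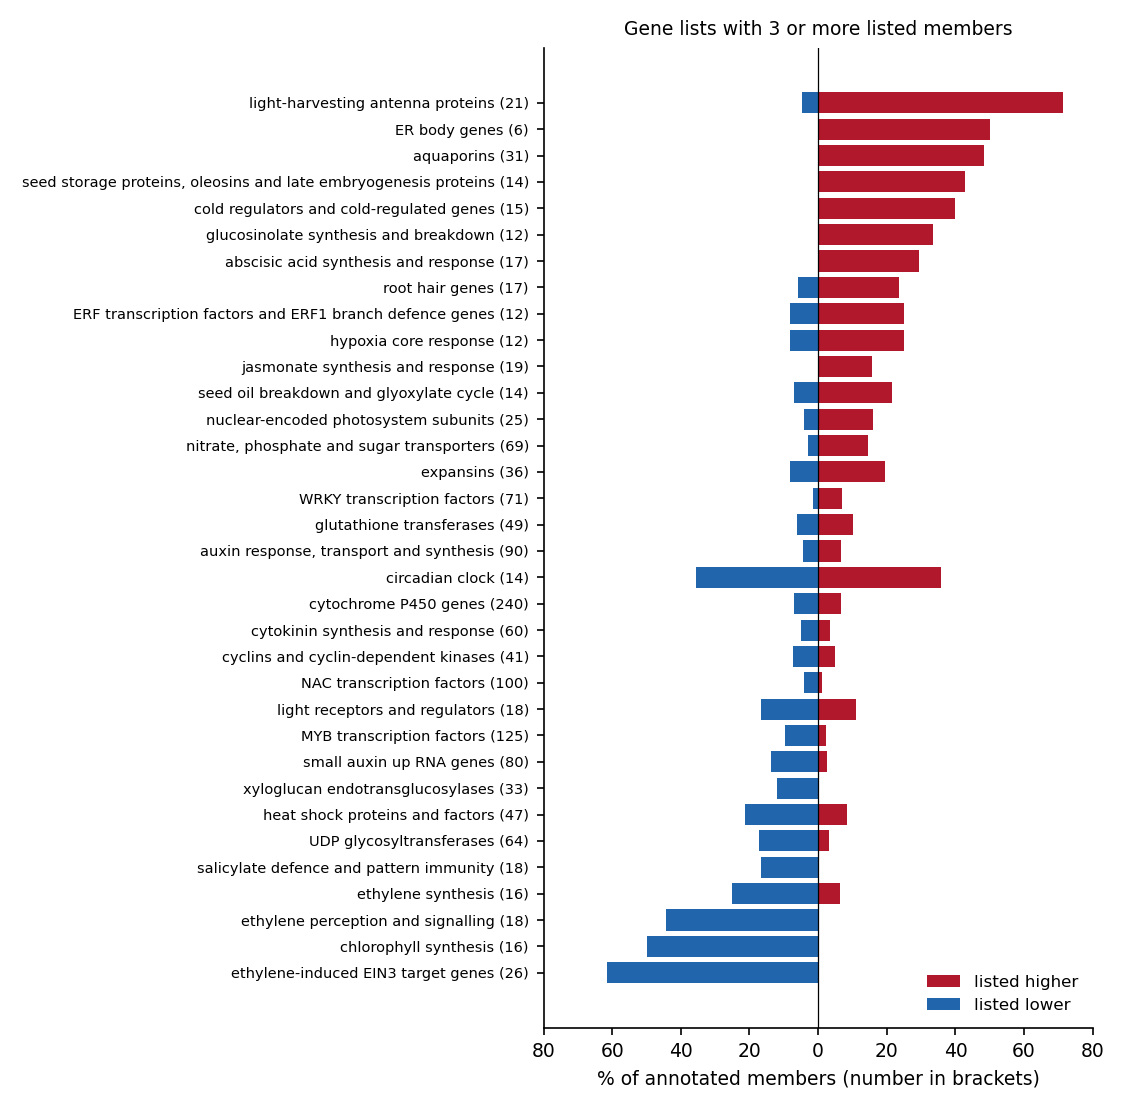
Bars give the percent of annotated members (number in brackets) of each gene list that were listed higher (red, to the right) or lower (blue, to the left) in the K245N line, for lists with at least 3 listed members. Lists grouped after their values had been seen are not drawn, but the lists drawn were also chosen with earlier results of these data known. Of the lists drawn, antenna proteins stand at the top with 15 of 21 higher and ethylene-induced EIN3 targets at the bottom with 16 of 26 lower.

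Neighbouring genes were sometimes listed together in 1 direction. Of listed protein-coding genes 2860 had no such neighbour, and there were 249 pairs, 37 runs of 3 and 1 run of 4. The marneral gene cluster on chromosome 5, which makes a root triterpene, was 1 of them, with MRN1, the cyclase, at log2 4.37, CYP71A16 at 2.44 and CYP705A12 at 1.60 by the authors' deposited table. UGT73B1, UGT73B2 and UGT73B3 formed a lower run at -1.43, -1.08 and -1.31. With 6.33% of protein-coding genes listed higher and 6.35% lower, some neighbours would share a direction without a link between them. That number was not computed, so these runs are a description only.

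Genes listed with Col at 0 included very short transcripts. Of the 46, 16 were under 300 bp, and these reached 18120 FPKM in the line, against at most 181 FPKM among longer genes. Also among the 46 were 6 genes within 100 kb of the mitochondrial insertion but outside its identifier range. AT2G07811, a pseudogene in the same stretch, had the third largest finite increase, log2 7.34 by the authors' deposited table. All 36 genes of the insertion itself were higher, and all 81 organelle genes were at 0 FPKM in the line. The part of library preparation or filtering in these values was not tested.

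EIN2 antibody ChIP peaks from seedlings carrying EIN2C-EIN3DB were set beside the listed genes as a description, since no ChIP library carries K245N. Neither background is described as mutated in EIN2. Peaks of the fusion and of native EIN2 therefore cannot be told apart. A gene was counted when a peak summit lay in it or within 1000 bp. In the Col-0 library titled ethylene, 6.72% of higher genes (119 of 1770, exact 95% interval 5.60 to 7.99%) and 9.43% of lower genes (173 of 1834, 8.13 to 10.9%) had a peak. Of genes listed for another line only, 5.83% did (5.27 to 6.44%). In the Col-0 library titled air, whose agent label says ethylene, the shares were 5.82% of higher genes, 4.36% of lower genes and 3.77% of the others. In the ein3-1eil-1 libraries, which had at most 275 peaks against 841 and 1510 in Col-0, shares ranged from 0.327 to 1.58%. There the share was larger for higher than for lower genes, 1.58 against 0.818% in each air replicate. In ethylene it was 0.904 against 0.327% in replicate 1 and 0.904 against 0.709% in replicate 2. A larger share for lower genes was thus seen only in the Col-0 library titled ethylene. Intervals cover counting error only. Col-0 and ein3-1eil-1 libraries also differed in tags kept and in redundancy, and the part of background in their contrast was not tested.

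Level moved with these shares. In the library titled ethylene, peaks stood at 5.77% of lower genes under 10 FPKM, 16.8% of those from 10 to under 100 FPKM and 46.4% of the 28 at 100 FPKM or more. Among higher genes the same shares were 2.11, 4.49 and 19.6%. Level here is that of the K245N line, while the peaks came from Col-0 seedlings. By the fold limit of 2, lower genes stand above and higher genes below their level in the line when measured in Col. Equal bins are therefore not matched for level in Col. The part of level in the difference between higher and lower genes was not tested further.

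Peaks also stood at genes of the lists above. Of the 19 lower ethylene genes, 12 had a peak in the Col-0 library titled ethylene, among them CTR1, EIL1, EBF1, EBF2, RAV1, RAV2, EDF3, HLS1, ARGOS, ARL and PORB, and 7 had one in that titled air. EBF2 had a peak in all 6 libraries. Both HEC1 and HEC2 had a peak in the library titled ethylene. Antenna genes showed the other order, with a peak at 12 of the 15 higher genes in the library titled air and at 3 in that titled ethylene. The 12 include the near-identical neighbours CAB1, CAB2 and CAB3, and LHB1B1 and LHB1B2, so they are not independent. Of all higher genes at 100 FPKM or more, 18.7% had a peak in the library titled air. Each of these Col-0 conditions is 1 library, so a difference between them has no replicate check.

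**Figure D5:**
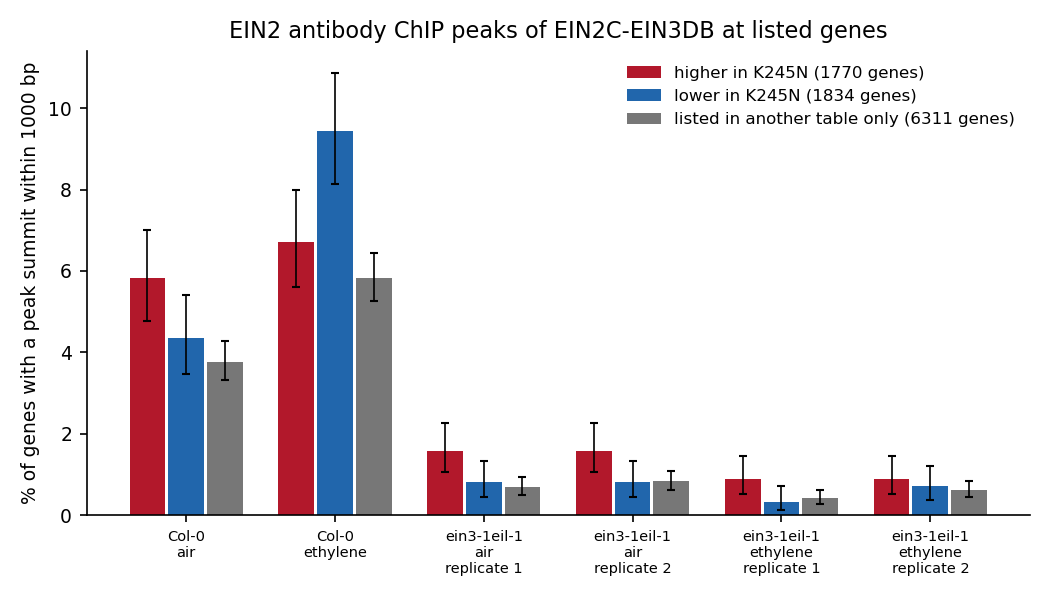
Bars give the percent of genes with an EIN2 antibody ChIP peak summit in the gene or within 1000 bp, for genes higher (red) or lower (blue) in the K245N line and genes listed for another line only (grey), with exact 95% binomial intervals. Lower genes reach 9.43% in the Col-0 library titled ethylene, and all ein3-1eil-1 libraries stay at or under 1.58%. In every other library the bar for higher genes is above that for lower genes.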

How the data were processed

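The expression values were FPKM estimates made by the authors, pooled over both libraries of a line. The submitters' processing notes name Cuffdiff 2.2.1 and the TAIR10 build. Per the file headers, the deposited table gives a log2 fold change, a p-value and a q-value for each gene. It keeps genes with a q-value under 0.05 and a fold of at least 2, and by its name a level of at least 1. The sources used here do not give the RNA aligner, the depth of the RNA libraries or the role of BWA. The deposited log2 was turned so that it reads line over Col, and 3 Col value columns, which belong to no sample of the series, were not used. Peaks were called by the authors with MACS2 2.1.0.20150603 for each library, per the file headers. Their deposited lists hold a fold enrichment (a ratio to input) and -log10 p and -log10 q for each peak. ChIP tags kept ranged from 3743192 to 10515608, per the file headers. The Col-0 libraries titled air and ethylene kept the fewest, 3743192 and 4713282. Their shares of redundant tags were 0.61 and 0.56, against 0.2 to 0.3 in the ein3-1eil-1 libraries.

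Members were counted against 43 gene lists and against 7 further lists grouped after their values were seen. The members and lists were chosen with earlier results of these data known. Families were found by symbol in RefSeq's gene table (TAIR10.1, names and neighbours only), where 99.7% of members matched. Other proteins with the same letters were removed by hand, and a list of ribosomal proteins was dropped for mixed symbols. Genes are named by rule: the 20 largest finite increases and decreases, ethylene list members, members at a fold of at least 4 and the 2 extremes of each list. Some of these are given only in counts. Other list members were named after their values were seen, to describe a list by its members' roles. A few genes that the rule covers are not reported here by name. No test was run, since no value per library was at hand. Counts used pandas 2.3.3 and intervals scipy 1.17.1, and the peak overlap was tested on simulated data. Coordinates are the deposited loci (TAIR10), 1-based.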

Additional observations from a re-analysis of the deposited data

How the results depend on the processing

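At a fold of at least 4, the higher genes were 433, the lower genes 384 and the share of higher genes 53.0%, genes at 0 in the line or in Col included, against 1770, 1834 and 49.1%. Without those genes they were 387, 314 and 55.2%. With a q-value under 0.01, with organelle and insertion genes kept in, with a level of at least 5 FPKM (higher genes), and with protein-coding genes only, the counts stayed within 1.5 times. The same held for alternatives chosen after seeing the data, which left out genes under 300 bp, genes with a shared locus and genes within 100 kb of the insertion. With the q-value under 0.01 the direction of the majority turned in 1 of 43 lists (cytochrome P450 genes), and at a fold of at least 4 in 3 (also cytokinin and hypoxia genes). No majority was left in 3 lists (root hair, WRKY and flavonoid genes) and in 15 lists, respectively. The share of higher genes with a ChIP peak in Col-0 ethylene was 3.79% for peaks in the gene itself and 1.81% at a -log10 q of at least 5. The share of lower genes was 5.13% and 3.00%. Leaving out a library could not be tried on pooled values. The search for promoter motifs was not run, since no promoter sequence was at hand. No paired analysis was possible because the deposited tables give no value per library. Unlisted genes may include changed genes below the authors' limits.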

Other observations

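The 70 genes at 0 FPKM in the K245N line included regulators of leaf and epidermis development outside the lists above. AS2, which patterns the leaf, and EPF2, a peptide that limits stomata, were among them, as were MIR159b and TAS1B, genes of small RNAs. In the authors' deposited tables, AS2, EPF2 and TAS1B were not listed for the other lines, and MIR159b stood at log2 -2.46 for EIN2C-EIN3DB.

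Small RNA genes are short and not measured well by such libraries, and these genes were picked after their values were seen. Among genes listed with Col at 0, NRPB12, an RNA polymerase II subunit, was at 181 FPKM, and 2 neighbouring lectin-family loci, AT1G52060 and AT1G52070, were at 7.75 and 7.65 FPKM. NRPB12 and both loci were also listed with Col at 0 for EIN2C-EIN3DB and EIN2S645A, which were set against the same Col.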
